A study of Homo sapiens with 8 samples.

Results

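miR-101 was examined in colorectal cancer cells grown as multicellular spheroids (MCS) or as a monolayer (2D). It was taken as the 2 rows of the table of raw miRNA counts that name its mature arms, hsa-miR-101-3p and hsa-miR-101-5p, out of 1780 miRNA rows. The miRNA was chosen from these same counts, with its higher level in DLD1 MCS already known, and its rows were then taken by name. The comparisons of MCS with 2D, the difference between the cell lines in that comparison and the levels of the lines, which rest on the same libraries, are therefore given as descriptions without a test.

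DLD1 and HT29 are established human colorectal adenocarcinoma cell lines. Small RNA was sequenced after 6 days of culture from 2 libraries for each cell line and culture, 8 in all, which the labels call biological replicates. A 2D flask was seeded with 35000 cells of DLD1 or 100000 of HT29, and an agarose-coated MCS well with 7000 cells of DLD1 or 3500 of HT29. DLD1 cells were kept in RPMI and HT29 cells in DMEM, and the DLD1 libraries were made with version 3 of the NEXTflex kit and the HT29 libraries with version 2. Cell line, medium and kit version cannot be told apart, and RNA was isolated from a fixed number of cells that was far above the number seeded in a flask or well. How many wells or flasks went into a library is not given in the sources used here. In bulk RNA, more cells of one state and more miRNA per cell cannot be told apart either. The libraries held 10495634 to 26211524 miRNA counts. The 4 epithelial and intestinal miRNAs checked (miR-200c-3p, miR-141-3p, miR-192-5p and miR-194-5p) summed to 32490 CPM (counts scaled to a common library total) or more in every library, against at most 97.4 CPM for the 4 measured miRNAs of muscle, endothelium and blood, of which miR-145-5p and miR-451a were at 0 in some libraries. miR-223-3p of blood cells was not analysed here.

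A miRNA is cut from a hairpin precursor as a duplex of a 5p and a 3p arm, of which one arm usually stays in the silencing complex. Its seed, the bases near the 5′ end, pairs with sites in the 3′ untranslated regions of mRNAs, which are then repressed. miR-101 is best known as a repressor of EZH2, the catalytic subunit of Polycomb repressive complex 2, which methylates histone H3 at genes to be kept silent. Loss of miR-101 together with high EZH2 has been described in several carcinomas. No mRNA was measured in these libraries, so levels of EZH2 are not part of these data.

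The mature arms are shown first because the guide arm, the seed and the source hairpin decide what the counts can tell. The sequences are from RefSeq, 5′ to 3′, with the seed (bases 2 to 8) in capitals. The second 5p arm, miR-101-2-5p, has no row in the counts, and miR-144-3p is shown because it alone among 2370 mature entries of the table shares bases 2 to 7 with miR-101-3p.
miR-101-3p: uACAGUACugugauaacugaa
miR-101-5p: cAGUUAUCacagugcugaugcu
miR-101-2-5p: uCGGUUAUcaugguaccgaugc
miR-144-3p: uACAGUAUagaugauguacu
miR-144-3p parts from miR-101-3p at base 8, the last base of the seed, and was nearly absent. It had 0 counts in all 4 DLD1 libraries and 1, 2, 2 and 5 counts in the HT29 libraries. Counts with this seed core were thus almost all counts of miR-101-3p itself.

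Both MIR101 hairpins hold the miR-101-3p sequence, in capitals here, but differ in their 5p arms.
MIR101-1: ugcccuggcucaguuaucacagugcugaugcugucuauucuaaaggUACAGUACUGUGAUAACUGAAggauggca
MIR101-2: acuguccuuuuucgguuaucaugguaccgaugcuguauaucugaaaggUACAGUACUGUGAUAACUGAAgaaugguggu
MIR101-1 (GRCh37 chr1:65524117-65524191, minus strand) is intronic to JAK1, the gene of a cytokine receptor kinase. MIR101-2 (GRCh37 chr9:4850297-4850375, plus strand) is intronic to RCL1, a gene of ribosomal RNA processing, and lies opposite an annotated lncRNA (ENSG00000228165). Counts of miR-101-3p cannot be assigned to one hairpin. Counts of miR-101-5p belong to MIR101-1 by sequence, since the 2 5p arms match at only 16 of 21 aligned bases. The only miRNA gene annotated within 10 kb of either hairpin was MIR3671, beside MIR101-1, and the counts have no row for it.

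The 3′ untranslated region of EZH2 (the canonical transcript of GENCODE release 44, 263 bases) holds 2 matches to the full seed of miR-101-3p, GTACTGT, on the transcript strand. They are shown, with the match in capitals, because they are the textbook sites through which this miRNA acts on EZH2.
EZH2 site at bases 59 to 65: aggaacctcgaGTACTGTggg
EZH2 site at bases 114 to 120: gaatttgcaaaGTACTGTaag
On GRCh37 these matches are at chr7:148504673-148504679 and chr7:148504618-148504624, both on the minus strand. Among 16021 canonical 3′ untranslated regions of at least 263 bases, 1.37% hold GTACTGT in their first 263 bases. The same region of EZH2 holds 1 match to the seed of miR-26 (TACTTGA, at bases 250 to 256) and 1 to that of let-7 (CTACCTC, at bases 7 to 13), found in 1.96% and 1.67% of the regions. A match is a description of the sequence and was not tested as a site in these cells.

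In DLD1 cells, miR-101-3p was more abundant in MCS than in 2D. The 2D libraries had 29728 and 37105 counts of it and the MCS libraries 73638 and 59518, replicate 1 being given first. These were 1880 and 1456 CPM in 2D and 4075 and 2908 CPM in MCS. After upper quartile scaling within the cell line, 2D libraries stood at 1695 and 1248 normalized CPM and MCS libraries at 3935 and 3900. Both MCS libraries lay above both 2D libraries on each of these scales.

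The 2D mean was 1471 ± 316 normalized CPM and the MCS mean 3917 ± 25.0 (SD, n = 2 each). The fitted log2 fold change was 1.41 (standard error 0.24), or 2.66-fold. The replicates of a culture differed by 0.44 on the log2 scale in 2D and by 0.01 in MCS, so the gap between the cultures was larger than either. The 0.01 depended on the scaling, since in CPM the replicates differed by 0.37 in 2D and by 0.49 in MCS. With upper quartile scaling, 98.0% of the tested miRNAs differed more than miR-101-3p between the MCS replicates. The order of MCS above 2D was also seen in ranks, which no scaling changes. miR-101-3p was the 53rd and 58th most abundant miRNA in 2D and the 43rd and 47th in MCS. A separation of both MCS libraries upward was common in DLD1 cells, where 45.4% of the 346 tested miRNAs showed it, and 41.3% were called in edgeR's quasi-likelihood test (a fold change of at least 1.5 and an adjusted p-value under 0.05), 29.8% as up-regulated. These calls numbered 103 up and 40 down, but 60 up and 83 down with library totals alone. The fold change of miR-101-3p ranked 37th of these 346, with 89.3% of them below it.

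In HT29 cells, miR-101-3p had 20923 and 196634 counts in 2D and 24945 and 114510 in MCS. These were 1994 and 7502 CPM in 2D and 2321 and 6664 CPM in MCS, so that the replicates of a culture differed far more than the cultures did. After upper quartile scaling, 2D libraries stood at 3816 and 4519 normalized CPM and MCS libraries at 3131 and 4285. The cultures overlapped on both scales.

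The HT29 mean was 4168 ± 497 normalized CPM in 2D, and the MCS mean was 3708 ± 816 (SD, n = 2 each). The fitted log2 fold change was -0.17 (standard error 0.44). The sign was not firm, since without replicate 1 of MCS the value was 0.015. With any other library left out it was -0.44 to -0.13. Both MCS libraries lay above both 2D libraries for 17.9% of the 301 miRNAs tested in HT29 cells and below them for 10.6%, and miR-101-3p was in neither group. In the 2 cultures, the HT29 replicates differed by 1.91 and 1.52 on the log2 scale of CPM, against medians of 1.55 and 1.09 over the tested miRNAs. Another miRNA, miR-10a-5p, took 47.3% and 38.5% of the counts in replicate 1 of 2D and MCS, against 10.6% and 6.57% in replicate 2, and its part in the CPM of miR-101-3p was not tested. By rank, miR-101-3p was 32nd and 23rd in 2D and 31st and 28th in MCS.

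**Figure D1:**
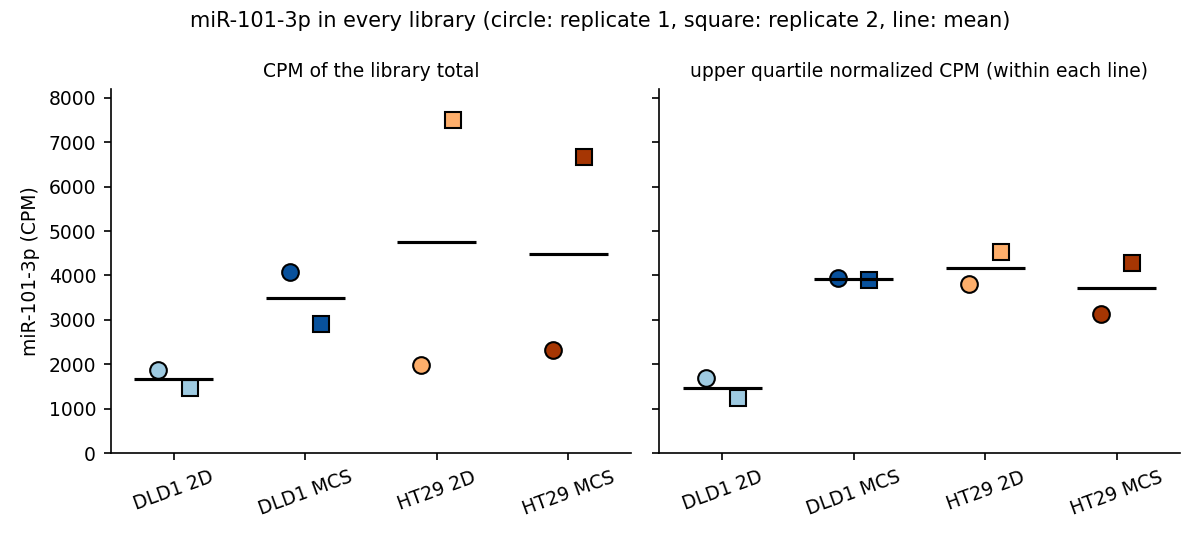
Level of miR-101-3p in each of the 8 libraries, as CPM of the library total (left) and as upper quartile normalized CPM within each cell line (right), both on a linear axis from 0, with circles for replicate 1, squares for replicate 2 and lines for the mean of 2 libraries. The DLD1 MCS libraries lie above the DLD1 2D libraries in both panels, and the HT29 replicates, 1994 to 7502 CPM on the left, come together at 3131 to 4519 normalized CPM on the right.

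The size of the DLD1 difference followed the scaling. It was 1.22 on the log2 scale with TMM factors, 1.30 with the size factors of DESeq2 (RLE), 1.07 with library totals alone, 0.96 when upper quartiles were taken from tested miRNAs alone and 1.19 in DESeq2. The median of all tested miRNAs moved with it, from 0.23 with the upper quartile over all miRNAs to -0.22 with that over the tested miRNAs. Relative to this median, the difference of miR-101-3p in DLD1 cells was 1.18 to 1.20 in these 6 settings. In HT29 cells the distance from the median of all tested miRNAs was -0.27 to -0.20 in the same settings. These settings differ mainly in the library factors, which shift all miRNAs of a comparison nearly alike, so this distance could hardly move between them. In DLD1 cells it was 1.34 with no filter, 0.98 without replicate 2 of 2D and 1.30 without replicate 2 of MCS.

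**Figure D2:**
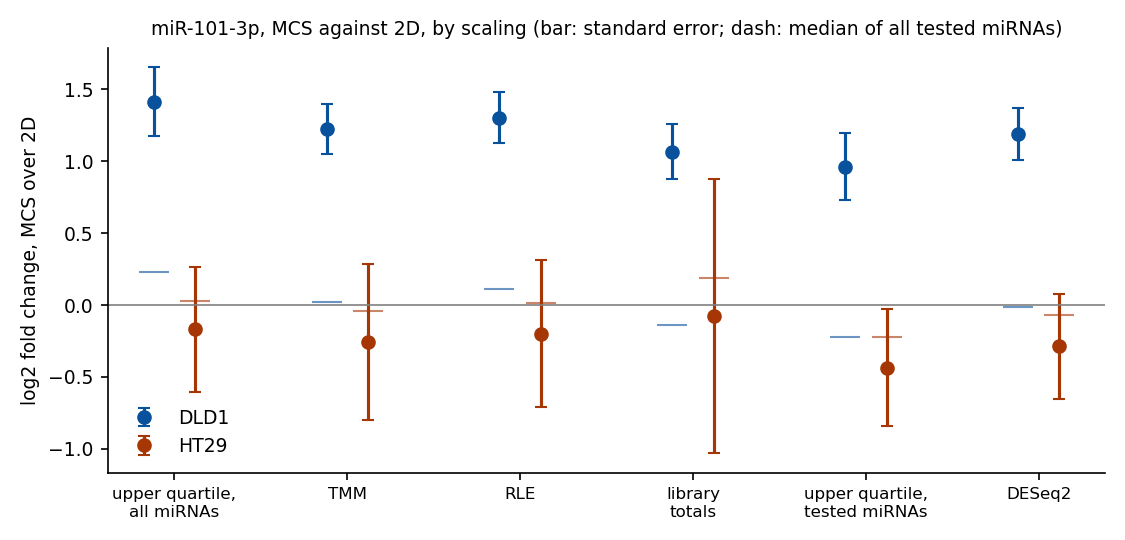
Fitted log2 fold change of miR-101-3p between MCS and 2D in each cell line under 6 scalings or tools, with bars for the standard error and dashes for the median of all miRNAs tested in that line. In DLD1 cells the value falls from 1.41 to 0.96 as the median falls from 0.23 to -0.22, and in HT29 cells it stays at or below -0.08.

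Between the cell lines, the log2 fold changes of miR-101-3p differed by -1.62 (HT29 minus DLD1, standard error 0.41, fit of all 8 libraries). The median of this difference over the 250 miRNAs tested in both lines was -0.23, and 4% of them lay below miR-101-3p. Since this difference is part of how the miRNA was chosen, no p is given for it.

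The level itself was then compared between the cell lines within each culture, with factors computed over all 8 libraries. On this scale miR-101-3p had 1280 and 989 normalized CPM in DLD1 2D and 3170 and 2821 in DLD1 MCS. In HT29 cells it had 5019 and 6003 in 2D, then 4072 and 5405 in MCS. The order of the group means was thus DLD1 2D (1134 ± 206), DLD1 MCS (2996 ± 247), HT29 MCS (4739 ± 943) and HT29 2D (5511 ± 696; SD, n = 2 each). On this scale the libraries of neighbouring groups did not overlap, except those of HT29 MCS and HT29 2D.

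In 2D, HT29 cells had 4.86-fold more miR-101-3p than DLD1 cells, a fitted log2 difference of 2.28 (standard error 0.30). In MCS, where the DLD1 level was higher, the log2 difference was 0.66 (standard error 0.29). Both HT29 libraries again lay above both DLD1 libraries on the scale of all 8 libraries. In CPM of the library total they did not, with 2321 and 6664 in HT29 MCS against 4075 and 2908 in DLD1 MCS. The low DLD1 2D libraries enter the difference in 2D as well as the one by which the miRNA was chosen, so no p is given for either level. Of the 250 tested miRNAs, 26.0% were called higher in HT29 cells in 2D (65, with 41 lower) and 24.4% in MCS (61, with 46 lower) in edgeR's quasi-likelihood test. With library totals alone these calls were 14 higher and 48 lower in 2D and 17 and 36 in MCS, and the log2 difference of miR-101-3p was 1.51 in 2D and 0.36 in MCS. Since the kit version differed with the cell line, the level cannot be assigned to the cells alone.

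The 5p arm was scarce in every library. miR-101-5p had 9 and 18 counts in DLD1 2D, 16 and 25 in DLD1 MCS, 6 and 33 in HT29 2D and 6 and 36 in HT29 MCS. In CPM the lowest library had 0.558 and the highest 2.10, so that this arm did not reach the mean of 10 CPM needed for the test. A single count moves such values, and for 6 counts the exact 95% Poisson interval is 2.20 to 13.1 counts.

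With upper quartile factors, the ratio of MCS to 2D for the summed 5p counts was 2.11 in DLD1 cells (27 counts in 2D and 41 in MCS, exact 95% interval 1.27 to 3.57). It was 1.52 in HT29 cells (39 counts in 2D and 42 in MCS, exact 95% interval 0.960 to 2.41). These intervals cover counting error only, not the spread between replicates. In the same form, from summed counts, the ratios of the 3p arm were 2.77 and 0.905. In DLD1 cells the 3p ratio lay inside the interval of the 5p ratio. In HT29 cells it lay just under the interval, but the 5p ratio there was 1.13 from the means of the libraries (an alternative chosen after seeing the data) and 0.946 without replicate 2 of MCS.

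The ratio between the arms does not depend on the scaling of the libraries. The 5p arm made up 0.0303% and 0.0485% of the miR-101 counts in DLD1 2D and 0.0217% and 0.0420% in DLD1 MCS. Its share was 0.0287% and 0.0168% in HT29 2D and 0.0240% and 0.0314% in HT29 MCS. This is 1 read of miR-101-5p for 2061 to 5959 reads of miR-101-3p, the arm known as the guide. The 3p counts may come from either hairpin, but the 5p counts are of MIR101-1 alone, since miR-101-2-5p has no row. The share is thus not that of the arms of a single hairpin, and arm use cannot be told apart from hairpin use.

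The 5p share averaged 0.0356% over the 4 DLD1 libraries and 0.0252% over the 4 HT29 libraries. Over the cultures it averaged 0.0298% in MCS and 0.0311% in 2D. The share is computed from the counts by which the miRNA was chosen, so no p is given for either difference. With 6 to 36 reads of the 5p arm per library, these means show neither that the shares differ between cultures or cell lines nor that they are alike.

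**Figure D3:**
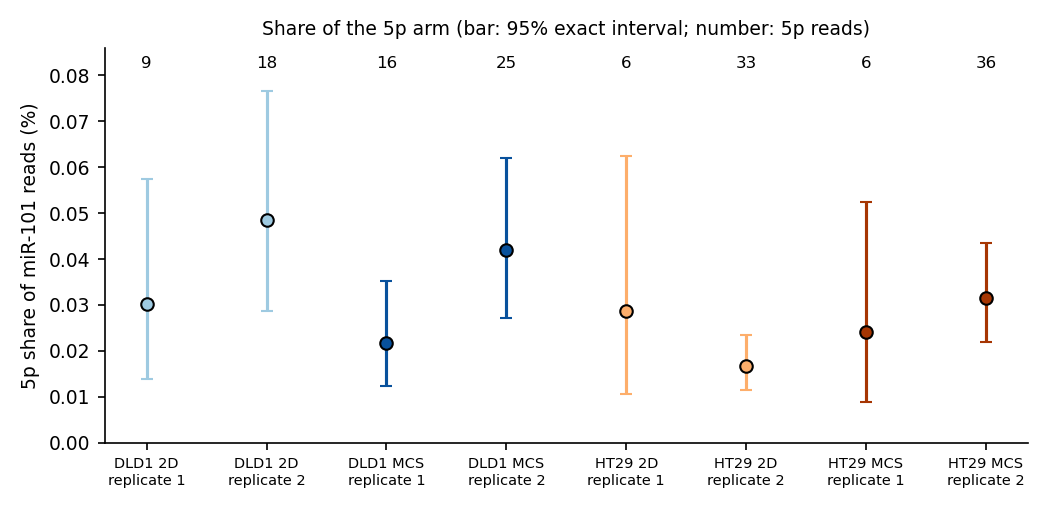
Share of the 5p arm among miR-101 counts in each library in percent, with exact 95% intervals for counting error and the number of 5p reads above each point. The shares run from 0.0168% to 0.0485%, and the libraries of MCS and 2D overlap in both cell lines.

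Other miRNAs described as regulators of EZH2 were set beside miR-101-3p, namely miR-26a-5p and miR-26b-5p, 8 let-7 miRNAs with miR-98-5p, which share the let-7 seed, and miR-124-3p, miR-138-5p, miR-214-3p and miR-217. The list was drawn up with earlier results of these data known, so its calls and p-values are no independent test. Of these 15 miRNAs, 11 reached the mean of 10 CPM in DLD1 cells. miR-124-3p, miR-138-5p, miR-214-3p and miR-217, best known from brain, mesenchyme and pancreas, did not, with at most 44 counts in any DLD1 library. In DLD1 cells 5 of the 11 tested were called up-regulated in MCS and 0 down-regulated in edgeR's quasi-likelihood test, against 29.8% called up-regulated and 11.6% called down-regulated among all tested miRNAs. Their median log2 fold change was 0.48, against 0.23 for all tested miRNAs, but 0.16 against 0.22 without replicate 1 of 2D and 0.075 against 0.062 without replicate 2 of MCS. All 11 log2 fold changes were above 0 with the upper quartile over all miRNAs, 9 with RLE, 7 with TMM, with library totals and in DESeq2, and 6 with upper quartiles of tested miRNAs. let-7e-5p and let-7i-5p were below 0 in each of these 5 other settings.

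The largest rise in the group was that of let-7b-5p, a member of a family known to restrain proliferation and stem cell programmes. It had 3770 and 3971 normalized CPM in DLD1 2D and 16320 and 16791 in MCS, a log2 fold change of 2.10 (standard error 0.28, adjusted p = 1.96e-12, edgeR). let-7c-5p rose by 2.07 on the log2 scale (standard error 0.35, adjusted p = 3.42e-08, edgeR) from 8.84 and 10.6 normalized CPM to 35.96 and 46.0. let-7a-5p rose by 1.57 (standard error 0.30, adjusted p = 1.64e-06, edgeR) and let-7f-5p by 0.69 (standard error 0.29, adjusted p = 0.0406, edgeR). The last was not called with TMM, RLE or library total scaling, or in DESeq2. let-7 sequences differ by few bases, and how reads matching several of them were counted is not given in the sources used here.

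Among the miR-26 family, whose seed matches EZH2 near the end of its 3′ untranslated region, miR-26b-5p had 6402 and 7369 normalized CPM in DLD1 2D and 11622 and 18087 in MCS. Its log2 fold change was 1.11 (standard error 0.27, adjusted p = 0.000235, edgeR). This call was lost without replicate 1 of 2D (adjusted p = 0.0591), without replicate 2 of 2D (0.0767) and in the edgeR fit of all 8 libraries (0.124). The more abundant miR-26a-5p had 31983 and 38441 normalized CPM in 2D and 38121 and 56195 in MCS, and its libraries overlapped. Its log2 fold change of 0.42 (standard error 0.31, adjusted p = 0.283, edgeR) did not pass. The fold change of miR-101-3p in DLD1 cells thus lay between those of miR-26b-5p and let-7a-5p.

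In HT29 cells 10 of the 15 miRNAs were tested, since let-7c-5p had 60 to 153 counts per library and fell under the mean of 10 CPM. None of these 10 was called by edgeR's quasi-likelihood test, in which 0.0% of all 301 tested miRNAs passed, while 3.99% (12 miRNAs) had a p-value under 0.05 before adjustment. In HT29 cells, 8 tested miRNAs were called up and 4 down by DESeq2, with 0 of the 10 among them. With the replicate number as a block, edgeR called 33 up and 14 down, with miR-26b-5p among those up. No label ties same-numbered libraries to each other. Without the block, the log2 fold changes of the 10 ran from -0.55 for let-7i-5p to 0.87 for miR-26b-5p. Their median was 0.06, against 0.03 for all tested miRNAs. The list's median rested on single libraries, at 0.89 without replicate 1 of 2D and -0.54 without replicate 2 of 2D. The medians of all tested miRNAs in these fits were 0.23 and -0.11. miR-26b-5p was the only one of them whose MCS libraries both lay above both 2D libraries. In every library, miR-101-3p took a smaller share of the counts than the miR-26 miRNAs summed or than let-7 and miR-98 summed. Against single miRNAs this did not hold. In every HT29 library miR-101-3p exceeded miR-26b-5p, which had 1434 and 874 normalized CPM in 2D and 2203 and 2017 in MCS. It exceeded let-7a-5p in replicate 2 alone (2233 in 2D and 3725 in MCS). In every DLD1 library it lay below miR-26b-5p and let-7a-5p but above let-7c-5p and let-7e-5p. Of all counts, miR-101-3p took 0.146% to 0.408% in DLD1 libraries, against 4.26% to 5.54% for the 2 miR-26 miRNAs and 5.84% to 10.0% for let-7 and miR-98 together. In HT29 libraries the shares were 0.199% to 0.750%, 0.496% to 1.27% and 2.80% to 3.37%.

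**Figure D4:**
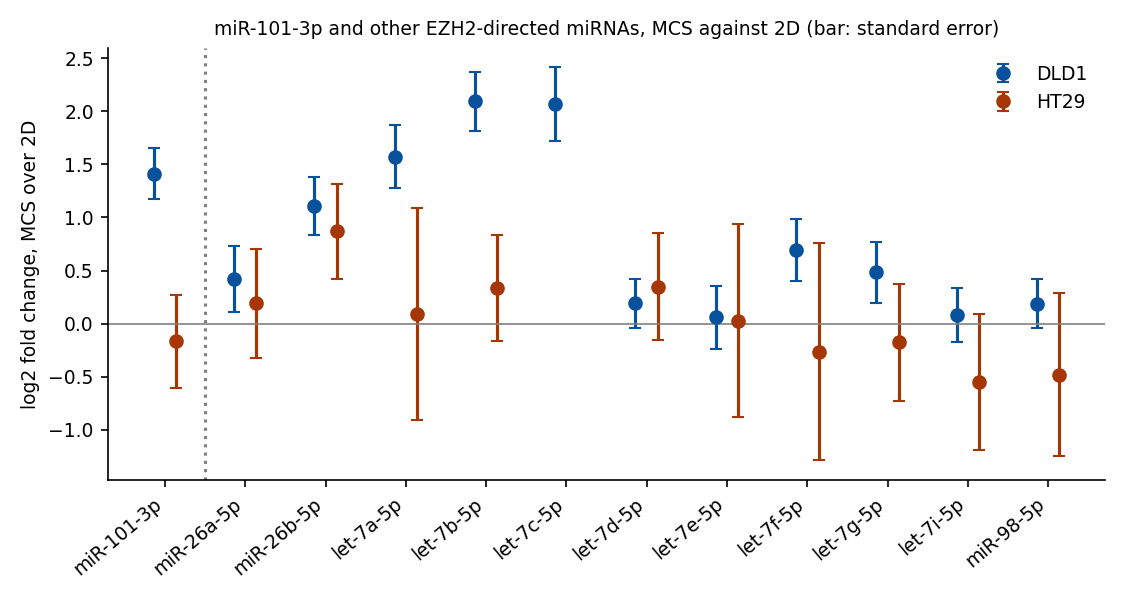
Fitted log2 fold change between MCS and 2D for miR-101-3p (left of the dotted line) and the 11 tested EZH2-directed miRNAs, in DLD1 and HT29 cells, with bars for the standard error; let-7c-5p was tested in DLD1 cells only. With this upper quartile scaling all 11 DLD1 values lie above 0, from 0.06 to 2.10, of which 4 fall below 0 with library totals alone and 5 with upper quartiles of tested miRNAs, and the HT29 values run from -0.55 to 0.87.

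Finally, miRNAs with the pattern most like that of miR-101-3p over the 8 libraries were sought among the 249 others with a mean of at least 10 CPM in each line. Likeness was measured as the root mean square difference of log2 normalized CPM, centred on each miRNA's mean. The closest was miR-200b-3p, a guardian of the epithelial state, at 0.25, followed by miR-1287-5p at 0.35, miR-181a-3p at 0.39, miR-429 at 0.41 and miR-3065-3p at 0.42. The median over all 249 was 1.13. miR-200b-3p and miR-429 belong to the same cluster of the miR-200 family.

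miR-200b-3p shared the order of the groups with miR-101-3p. With factors over all 8 libraries its means were 23450 normalized CPM in DLD1 2D, 54783 in DLD1 MCS, 86651 in HT29 2D and 77286 in HT29 MCS, with log2 fold changes between MCS and 2D of 1.26 in DLD1 and -0.12 in HT29. For miR-181a-3p the means were 109, 185, 549 and 410 normalized CPM in the same order, and for miR-1287-5p 7.37, 11.6, 27.8 and 25.1. By contrast, miR-429 (3394, 4920, 8548 and 10752) and miR-3065-3p (9.59, 16.1, 27.0 and 32.8) were higher in HT29 MCS than in HT29 2D. All 5 were picked by likeness over these same libraries, so a shared order of groups is no separate result. The EZH2-directed miRNAs were less alike, the closest of those tested in both lines being let-7i-5p at 0.97, in place 86 of 249. These distances rest on 8 libraries that share cell line, kit and scaling factors, and are a description.

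**Figure D5:**
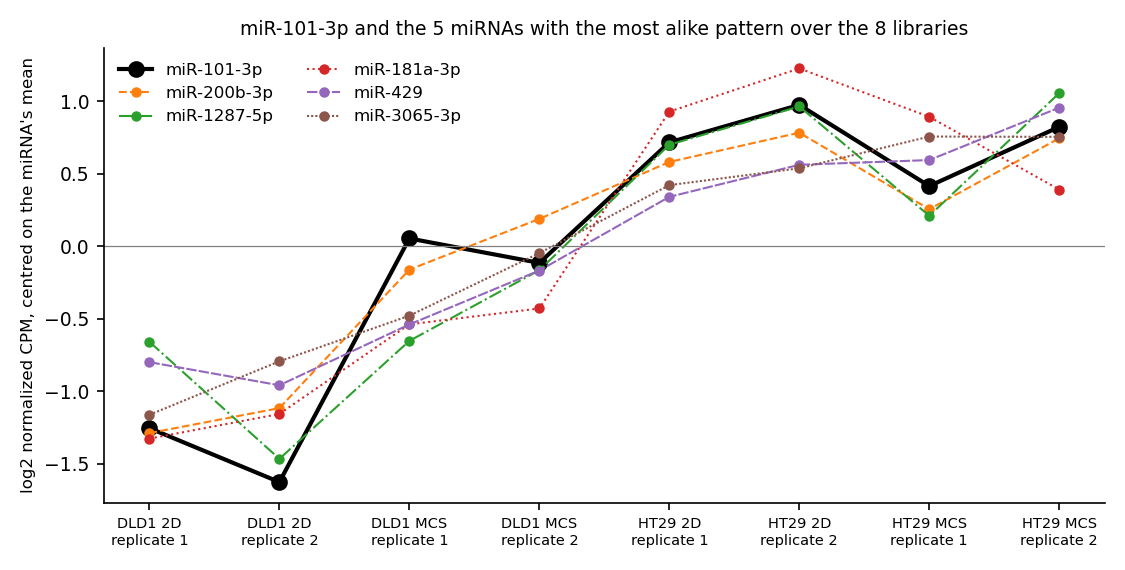
Log2 normalized CPM of miR-101-3p (black) and the 5 most alike miRNAs in each library, centred on the mean of each miRNA over the 8 libraries; the lines join libraries only to guide the eye. Each of the 6 has its lowest value in a DLD1 2D library, and miR-200b-3p stays closest to miR-101-3p, at a root mean square difference of 0.25.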

How the data were processed

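Small RNA libraries of DLD1 and HT29 cells were grouped by cell line and culture from the submitters' titles. The authors trimmed reads with cutadapt, aligned them to GRCh37 (hg19) with Bowtie2 and to mature miRNAs of miRBase release 21 (tool versions differ between their notes and methods), and deposited raw counts for each mature miRNA, with neither normalization nor pooling. Between each library's own table and the joint table, 12572 values were compared and 0 differed. Entries that name no miRNA (15, at most 0.00988% of a library) were left out.

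Upper quartile factors from edgeR used every miRNA that had a count. MiRNAs whose mean CPM in the cell line reached 10 were fitted with edgeR 4.0.16 (quasi-likelihood test, R 4.3.3), per cell line for MCS against 2D and over all 8 libraries, with at least that mean in each line, between the lines. Calls required 1.5-fold and 0.05 after Benjamini-Hochberg adjustment over all tested miRNAs. Standard errors are the log2 fold change divided by the root of the F statistic. The fit was tested on simulated data with TMM factors and a common spread for all miRNAs, so the upper quartile scaling was not tested there. With 2 libraries a group, p-values rest on a spread between libraries that edgeR estimates partly by sharing over the tested miRNAs. Their size moved with the scaling. For miR-26b-5p in DLD1 cells the adjusted p of edgeR was 0.000235 with upper quartile factors and 0.00552 with TMM factors. DESeq2 1.42.0, other scalings and filters, the replicate number as a block and leaving out libraries were alternatives. The likeness used a pseudocount of 0.5.

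The members and lists were chosen with earlier results of these data known. Named miRNAs were the 2 arms, those sharing bases 2 to 7, neighbours within 10 kb, the EZH2 list and the 5 most alike. Sequences are RefSeq's (GRCh38.p14 table); hairpins were located in GRCh37 by exact match, and genes are from GENCODE release 44 lifted to GRCh37.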

Additional observations from a re-analysis of the deposited data

How the results depend on the processing

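The log2 fold change of miR-101-3p in DLD1 cells moved beyond the replicate spread (0.22) to 1.07 with library totals alone, 0.96 with upper quartiles of tested miRNAs and 1.19 in DESeq2, and was 1.22 to 1.43 in the other 6 settings and 1.09 to 1.52 with each library left out. In HT29 cells it moved to -0.44 with upper quartiles of tested miRNAs, was -0.29 to -0.08 in the other 8 settings and -0.44 to 0.015 with a library left out. The difference between the lines moved to -1.15 with library totals and -1.10 with upper quartiles of tested miRNAs, and was -1.82 to -1.36 with a library left out. Over the settings, the difference in level between the lines was 1.51 (library totals) to 2.61 (TMM) in 2D, against 2.28 with upper quartile factors. In MCS it was 0.36 (library totals) to 1.03 (TMM), with 0.79 in DESeq2, against 0.66 with upper quartile factors. With a library left out it was 2.10 to 2.44 in 2D and 0.43 to 0.88 in MCS. The cause of these moves was not tested.

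The 5p ratio was 1.5 to 2.87 in DLD1 and 0.946 to 1.69 in HT29 cells with a library left out. The difference of the 5p share between MCS and 2D was -0.00632 to 0.00381 percentage points, turning positive without DLD1 2D replicate 2, DLD1 MCS replicate 1, HT29 2D replicate 1 or HT29 MCS replicate 1, and that between the lines was -0.0155 to -0.00532.

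EZH2-directed miRNAs called up-regulated in DLD1 numbered 4 in the other scalings and filters, 1 (let-7b-5p) with all libraries in 1 fit and 3 to 5 with a library left out, 3 without either 2D library. Of all miRNAs tested in DLD1, the upper quartile called 103 up and 40 down, TMM 76 and 62, RLE 89 and 50, library totals 60 and 83, upper quartiles of tested miRNAs 49 and 93, DESeq2 71 and 65, and the fit of all libraries 10 and 2.

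Nothing in the labels ties same-numbered libraries to each other. With the replicate block the log2 fold change of miR-101-3p was 1.43 in DLD1 and -0.18 in HT29 cells, the line difference 2.28 in 2D and 0.66 in MCS, and 1 EZH2-directed miRNA, miR-26b-5p, was called in HT29, where all calls went from 0 to 47. The deviations of same-numbered libraries correlated at 0.34 in DLD1 and 0.79 in HT29 cells.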
